A study of Mus musculus with 50 samples.

Results

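Private variants of the 3 mouse antibody loci were described in lymph node tumours of IL6Myc mice. A variant was a member when the deposited table counted it in 1 tumour and when it lay in the kappa light chain locus Igk (chr6:67555636-70726754), the heavy chain locus Igh (chr12:113258768-116009954) or the lambda light chain locus Igl (chr16:19026858-19260844). The limits are those of these loci on GRCm38.p6, the assembly that mm10 names. The rule found 292 members of 12705 private variants and 25624 distinct variants in all: 182 in Igk, 51 in Igh and 59 in Igl. The members were chosen by the deposited number of carrier tumours and by position, so their total and their privacy are given as a description with no test.

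Exomes were read from tumour DNA of the mesenteric lymph node, labelled as malignant plasma cells, of mice of the genotype IL6Myc, which serve as a model of multiple myeloma. Of 45 labelled tumours, each from its own mouse, 44 were analysed. Tumour 4 and the 5 kidneys of WT Balb/c mice were not analysed here, so inherited and acquired variants cannot be told apart by a matched control. Each call is given as its read share, the percent of reads at the position that carry the changed allele, and the read depth behind it is unknown. The sources used here do not give the promoters of the transgenes, their insertion sites or the ages of the mice, and DNA variant calls hold no marker by which the labelled cell type could be checked.

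Antibody genes are assembled in developing B cells by joining V, D and J segments for the heavy chain, or V and J segments for a light chain, in front of constant genes. In germinal centres, activation-induced deaminase then converts cytosines of the joined segment and of the sequence just after it, and error-prone repair spreads the changes to neighbouring A:T pairs. A plasma cell clone carries its joined segments and their mutations in every cell, which makes them marks of that clone. In the textbook account the changed stretch starts near the V promoter, runs on past the J segments and largely spares the constant exons.

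Insertions and deletions were rare among the members, and the 4 of at least 7 bases are shown because they carry most of the altered sequence. They are written on the plus strand of mm10 from the deposited alleles. Capitals mark the removed or added bases and the lower-case letter is the unchanged base before them.
Deletion of 15 bases between Igkj1 and Igkj2 in tumour 15 (chr6:70722812-70722827): aAATGCTCAAAGAAGC
Deletion of 15 bases near Ighv1-15 in tumour 28 (chr12:114658128-114658143): aTGATGATGGTGGTGG
Deletion of 7 bases in the pseudogene Ighv5-11 in tumour 27 (chr12:113687498-113687505): tGGGCACC
Insertion of 24 bases near Ighd3-2 in tumour 8 (chr12:113448124-113448124): gAGAGAGAGAGAGAGAGAGAGAGAA
The inserted bases near Ighd3-2 are themselves mostly a run of alternating A and G, and the bases removed near Ighv1-15 are repeats of TGA and TGG. The bases removed between the kappa J segments hold no such run of repeats.

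The deposited annotation calls all 292 members intergenic and names no gene for any of them. Each member was therefore assigned to the nearest V, D, J or constant gene segment of the RefSeq table of GRCm38.p6. Of the members, 156 (53.4%) were nearest a V segment, 116 (39.7%) a J segment, 13 (4.45%) a constant gene and 7 (2.40%) a D segment. V members mostly lay inside the segment, which includes the leader and its intron: 123 of 156. J members mostly lay in the sequence between or just after the segments: 9 of 116 were inside a J segment, and all 116 were within 300 bases of it. The J segments of Igk and of Igh lie close together, so a call between them is near a J segment whatever its position.

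Members were found in 42 of 44 tumours (95.5%, exact 95% interval 84.5 to 99.4%). Tumours 25 and 44 had none. The number per tumour had a median of 7, with quartiles of 3 and 10 and a highest value of 16 in tumour 19, and a mean of 6.64 ± 4.50 (SD, n = 44). The number was thus uneven: the 13 tumours with 10 or more members held 160 of the 292. Igk members were present in 38 tumours with up to 13 in tumour 41, Igl members in 23 tumours with up to 9 in tumour 34, and Igh members in 27 tumours with up to 4 in tumours 9 and 30.

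**Figure D1:**
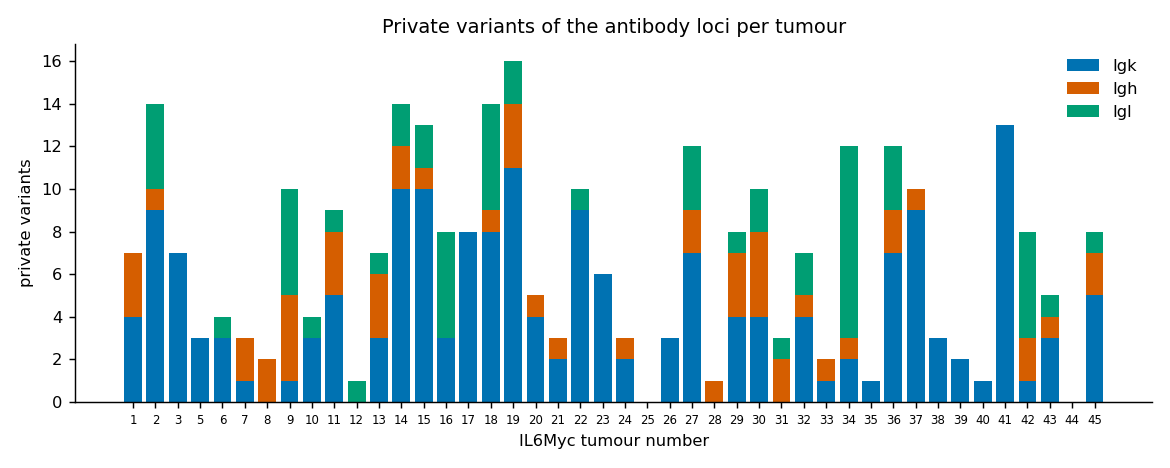
Private variants of the antibody loci in each of the 44 tumours, as stacked bars by locus (vertical axis, number of variants). Tumour 19 stands highest with 16, tumours 2, 14 and 18 follow with 14, and tumours 25 and 44 have none.

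Across the whole table, 292 of 314 variants in the antibody loci (93.0%) were counted in 1 tumour, against 12413 of 25310 variants elsewhere (49.0%). The locus shares were 97.8% in Igk, 78.5% in Igh and 93.7% in Igl. Just outside the rule lay 8 variants of 2 tumours, 1 in Igk, 3 in Igh and 4 in Igl. The first lay near Igkj5, with read shares of 35.3% in tumour 11 and 17.65% in tumour 18. The Igl variants comprised a pair in Iglv3 and 1 each in Iglv1 and Iglc1, with read shares between 2.61% and 55.6%. A further 14 variants were in over 2 tumours, 11 of them in Igh and 3 in Igk, where the most widely shared was in 43 tumours. Outside the locus limits, the flanking 100 kb on both sides held 3 private variants at Igk, 0 at Igh and 2 at Igl.

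The densest stretch was the kappa J region. It held 75 members of 28 tumours (63.6%, exact 95% interval 47.8 to 77.6%) in 1539 bases from 70722548 to 70724086, which is 48.7 members per kb of that span. The capture design and its coverage were not used here, so a density is a description of where calls were made and not a rate. Of these 28 tumours, 20 had 2 or more kappa J members and 13 had 3 or more, with up to 6 in tumour 22. By nearest segment, Igkj3 held 18 members of 16 tumours, Igkj5 18 of 14 tumours, Igkj4 18 of 11, Igkj2 13 of 9 and Igkj1 8 of 8. In steps of 200 bases from the start of Igkj1, the fullest step was at 600 to 800 bases with 13 members of 12 tumours. Beyond 1600 bases no member was called before the constant gene. The gap between the last J members and Igkc lies in the intron, and its coverage is unknown.

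Read shares of kappa J members ran from 2.63% to 69.8% with a median of 20%. Shares over 50% were found at Igkj1 and Igkj3 in tumour 2 (69.8% and 66.0%), at Igkj3 in tumour 37 (61.5% and 62.8%), at Igkj3 in tumour 10 (52.7%) and at Igkj5 in tumour 43 (56.8%). In all, 8 members exceeded 50%, these 6 and a pair near Ighd3-2. The constant gene Igkc held 4 members, all inside its exon. They lay in tumours 10 (25.6%), 14 (21.7%, at neighbouring bases) and 34 (8.75%).

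The heavy chain J region held fewer members. It held 26 members of 14 tumours (31.8%, exact 95% interval 18.6 to 47.6%) in 1320 bases from 113428472 to 113429791, or 19.7 per kb of span. Ighj3 held 11 members of 9 tumours, Ighj2 9 of 6 tumours, and Ighj1 and Ighj4 3 of 3 each. Their read shares ran from 4.69% to 50% with a median of 21.3%. The 8 tumours with 2 or more held 20 of the 26, and in 6 of them the shares lay within 5 percentage points of each other: 4 members of tumour 9 lay between 9.43% and 12.5%, and 3 of tumour 19 between 39.1% and 43.75%. The other two were wider, with 3 members of tumour 30 between 35.1% and 47.1% and a pair in tumour 1 at 20.45% and 38.9%. Members nearest D segments numbered 7, of 7 tumours. Ighd3-2 and Ighd2-4 had 3 each and Ighd4-1 had 1, and none lay inside a D segment. Those near Ighd3-2 had read shares of 91.3% in tumour 8 (the insertion), 54.55% in tumour 1 and 50% in tumour 36. At the position of the insertion, a G-to-A change was also called in 5 tumours. No member was nearest to any of the 8 heavy chain constant genes in the locus, among them Ighm, the constant gene of IgM, and Ighg1, that of IgG1. For 0 of 44 tumours the exact 95% interval reaches 8.04%.

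**Figure D2:**
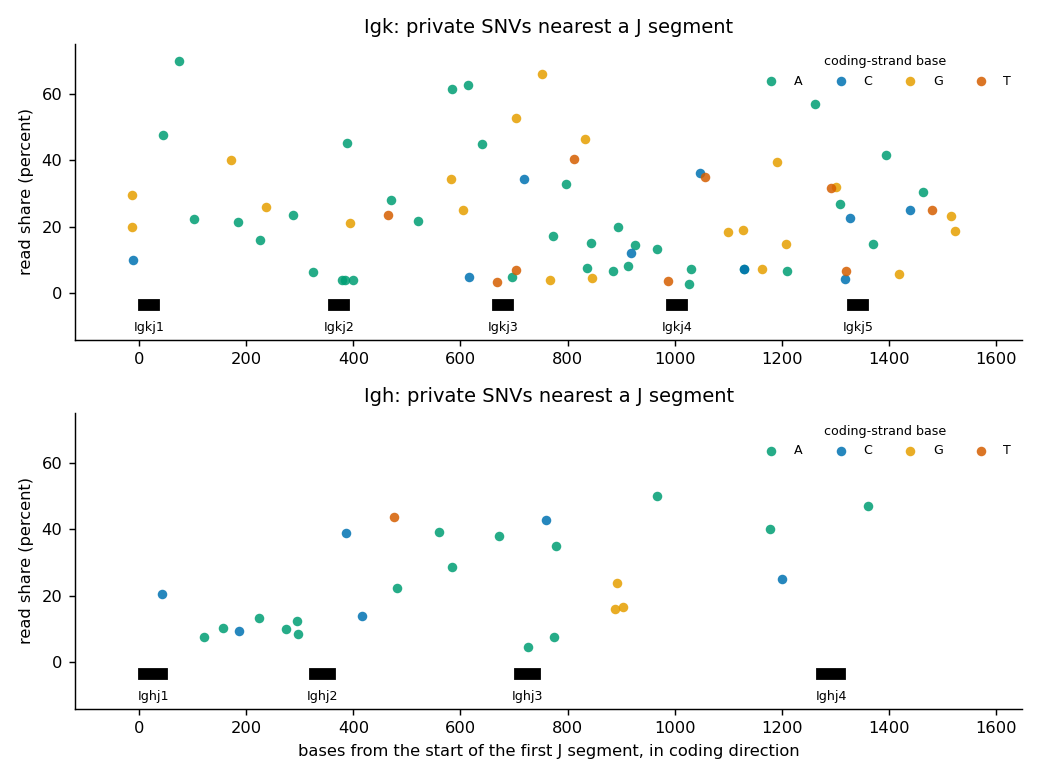
Private SNVs nearest a J segment in Igk (upper) and Igh (lower), by distance from the start of the first J segment in coding direction (horizontal axis, bases) and read share (vertical axis, percent), coloured by the reference base on the coding strand; black blocks are J segments. The 74 kappa and 26 heavy chain points spread between and after the segments, and the highest kappa point is at 69.8%.

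V members were spread over many segments in Igk, while Igl has only 3 V segments for them to fall near. In Igk, 103 members of 37 tumours were nearest to 47 of 162 RefSeq V segments, and 3 of the 47 were among the 60 pseudogenes. Of the 103, 92 lay inside the segment and 99 within 300 bases of it, and the farthest lay 16206 bases away. Igkv1-110 and Igkv1-135 were hit in 4 tumours each, with 5 members each and shares of 3.48% to 29.6% and of 2.58% to 22.1%. Igkv10-96 held 7 members of 3 tumours, with a lowest share of 3.19%, a median of 4.46% and a highest of 22.6%. By family, Igkv6 held 20 members of 10 tumours in 8 of its 9 segments, Igkv3 18 of 8 tumours and Igkv4 16 of 11 tumours in 9 of its 33 segments. These families hold near-identical copies, so the segment a read belongs to is uncertain.

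In Igl, the mouse locus with only 3 V segments, Iglv3 held 22 members of 12 tumours and Iglv1 12 of 7 tumours. Iglv3 shares ran from 4.35% to 43.6% with a median of 21.7%, and Iglv1 shares from 2.5% to 28.4% with a median of 6.78%. Iglv2 held 1 member at 2.90%. Igl J members numbered 15 of 11 tumours: 5 of 4 tumours at Iglj1, 5 of 4 at Iglj3 and 5 of 3 at the pseudogene Iglj3p. The lambda constant genes Iglc1, Iglc3 and Iglc2 held 4, 4 and 1 members, of which 2 lay inside the gene. In Igh only 18 members of 16 tumours were nearest a V segment, 3 of them inside it, among 183 V segments. The heavy chain V exons therefore held few calls although the heavy chain J region held 26. The heavy chain V part had no pair of members in the same segment and tumour other than Ighv5-2 in tumour 11, at 6.78% and 6.84%.

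Members of a tumour lay close to each other. Of the 292, 178 (60.96%) were within 1 kb of another private variant of the same tumour and 95 were within 100 bases. In the 26 tumours with at least 5 private variants in the loci and at least 5 elsewhere, the share within 1 kb had a lowest value of 0%, a median of 73.2% and a highest of 90% in the loci, against 5.43%, 13.4% and 53.4% in the rest of the exome. The mean difference was 48.4 percentage points ± 24.8 (SD, n = 26), higher in the loci in 24 of 26 tumours (two-sided paired permutation test over tumours, p = 2e-05, the smallest the 100000 resamples can give; adjusted p = 0.000113 over 17 tests). Members were chosen by position in the loci, whereas the rest spans the whole exome. Closeness is therefore partly built into the loci side, and the test cannot tell clustering from this choice. The difference also grew with the minimum number of variants. With at least 1 per side the means were 48.6% and 15.9% over 42 tumours, a difference of 32.8 percentage points. With at least 10 per side the difference was 54.8 points over 13 tumours. How densely each side was captured is unknown here. Neighbouring-base changes were found 5 times and changes 2 bases apart once, in tumours 5, 14, 17, 20, 26 and 42. Read shares within such a pair differed by at most 0.05 percentage points. In Igkv6-13 of tumour 5 both neighbouring G bases were changed to A, each at 41.8%. Position 70722548, in front of Igkj1, was changed in both tumours 13 (G to C, 29.55%) and 22 (G to T, 20%), the only position with members of 2 tumours.

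Small insertions and deletions were nearly absent. They made up 9 of the 292 members (3.08%), 7 of them deletions, each in a different tumour, and 2793 of 12412 private variants elsewhere (22.5%). Per tumour the indel share was 0% in 20 of 26 tumours and at most 12.5% in the loci. In the rest of the exome it ran from 13.8% to 37.2%, so the ranges did not overlap among these 26 tumours. The mean was 2.06% ± 3.98 in the loci and 24.97% ± 7.24 in the rest (SD, n = 26 each). The loci were lower in 26 of 26 tumours (two-sided paired permutation test, p = 2e-05, the smallest the resamples can give, adjusted p = 0.000113). Tumours 5, 8 and 28 had too few members for the test, at 3, 2 and 1, and each carried an indel. With at least 1 variant per side the means were 5.64% in the loci and 25.5% in the rest over 42 tumours. The 5 short indels were a deletion of 1 base in Igkv4-70 at 45.75% in tumour 19 and near Igkv8-23-1 at 43.5% in tumour 11, a deletion of 2 bases in Igkv6-23 at 14.5% in tumour 41 and near Igkv11-118 at 42.9% in tumour 5, and an insertion of 2 bases in Iglv3 at 4.62% in tumour 45.

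Of the 283 SNVs, 150 (53.0%) were transitions and 159 (56.2%) changed an A:T pair. Referred to the pyrimidine, T>C made up 78 (27.6%), C>T 72 (25.4%), T>A 41 (14.5%), T>G 40 (14.1%), C>G 28 (9.89%) and C>A 24 (8.48%). Two-sided paired permutation tests over 26 tumours compared each share with that of private SNVs elsewhere. The C>A share was 6.42% ± 7.02 in the loci and 17.2% ± 9.58 in the rest (SD, n = 26 each), lower in the loci in 22 of 26 tumours (p = 2e-05, adjusted p = 0.000113). It had no such call among variants of at least 20% read share, where the means were 8.24% and 9.91% over 10 tumours (adjusted p = 0.786). The T>A share was 15.6% ± 10.9 in the loci and 6.48% ± 2.43 in the rest (SD, n = 26 each), higher in the loci in 22 of 26 tumours (p = 0.00012, adjusted p = 0.00051). That call was lost among variants of at least 10% read share (14.04% against 7.08%, adjusted p = 0.083), among tumours with at least 10 SNVs (11.96% against 6.42%, adjusted p = 0.0961) and in Igk alone (adjusted p = 0.0589), all still higher in the loci. Tumour titles fall into 3 number series, which may mark batches: within titles 1501-1592 T>A kept its call, and within 1601-1628 it was 15.9% in the loci against 7.73% in the rest (adjusted p = 0.083). C>A kept its call within titles 1501-1592 (8.76% in the loci against 22.15% in the rest, permutation test, adjusted p = 0.0166). It also did within 1601-1628 (4.32% against 12.955%, adjusted p = 0.0125). The C>A share of the rest was uneven, at 25.1% to 39.7% in tumours 9, 11, 13, 14, 15 and 16. In the other tumours compared it was at most 20.4%. The difference without the tumours of high C>A share was not tested.

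The other classes did not pass the test over the 26 tumours. Transitions averaged 52.9% ± 15.9 in the loci and 53.3% ± 9.60 in the rest, with the loci higher in 12 and lower in 14 of 26 tumours (adjusted p = 0.923). The A:T share averaged 57.6% ± 21.3 in the loci and 47.6% ± 7.56 in the rest, with the loci higher in 14 and lower in 11 tumours (p = 0.0345, adjusted p = 0.0837). Among variants of at least 20% read share its direction turned, with 45.5% in the loci and 52.8% in the rest over 10 tumours (adjusted p = 0.598). C>G averaged 11.2% ± 12.3 and 6.16% ± 2.01 (adjusted p = 0.0978), C>T 24.8% and 29.1% (0.401), T>C 28.1% and 24.2% (0.406) and T>G 13.8% and 16.9% (0.401), each in the loci and in the rest. T>G was lower in the loci in 20 of 26 tumours. It passed the test among variants of at least 20% read share, with 8.62% in the loci and 15.4% in the rest over 10 tumours (permutation test, adjusted p = 0.0277), and within titles 1501-1592, with 9.30% and 16.6% over 12 tumours (adjusted p = 0.00996), but not within titles 1601-1628, with 15.4% and 18.2% over 11 tumours (adjusted p = 0.643). The difference between the title series was not tested.

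**Figure D3:**
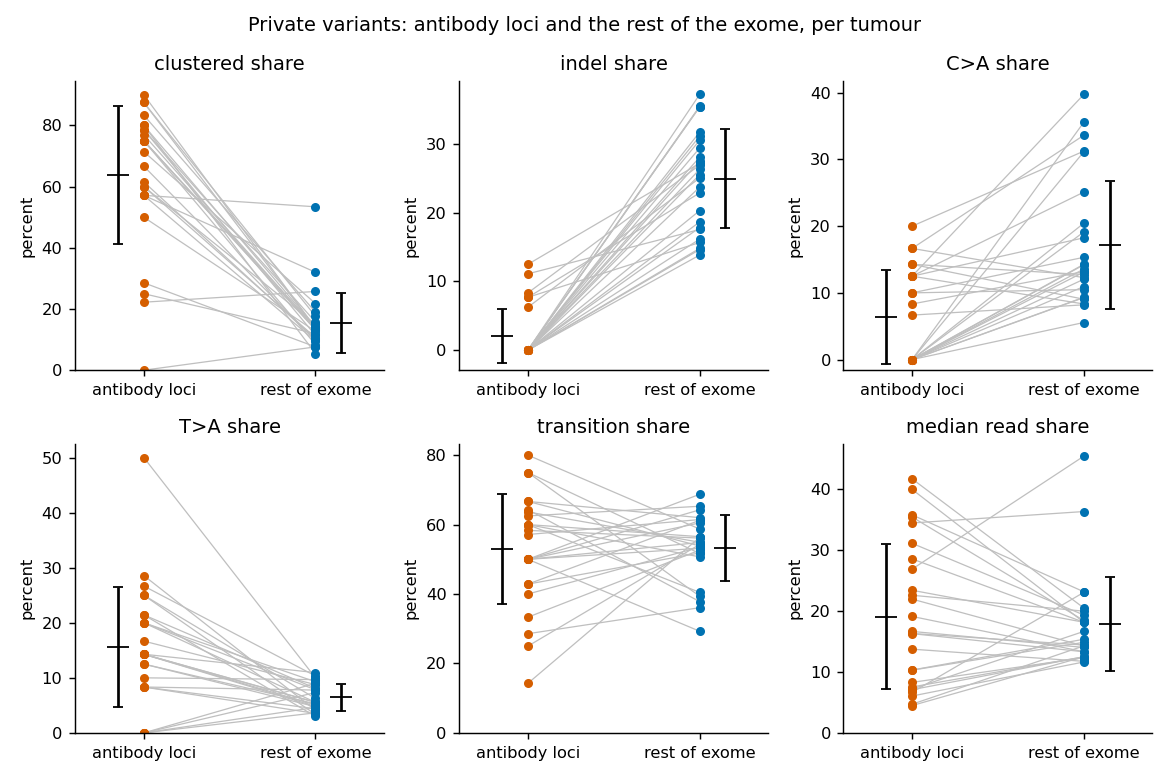
Values of 26 tumours in the antibody loci (left in each panel) and in the rest of the exome (right), joined by a grey line per tumour, for 6 measures in percent; black marks are mean ± SD. The clustered share averages 63.8% against 15.4% and the indel share 2.06% against 24.97%, while transition share and median read share overlap.

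In the J and constant parts the order of the segments gives the coding strand, plus in Igk and minus in Igh and Igl. The changed base was read on that strand, although most J members lay outside the segments. Of 128 SNVs in the J and constant parts, the base was A in 59, G in 30, C in 21 and T in 18. A exceeded T in Igk with 36 against 10 and in Igh with 16 against 1, and equalled it in Igl with 7 against 7. Over the 30 tumours with an SNV at A or T, A averaged 1.97 ± 1.63 and T 0.6 ± 0.81 per tumour (SD, n = 30), with more A in 21 tumours, more T in 5 and equal numbers in 4. This comparison, chosen after the data were seen, gave p = 0.00126 (two-sided paired permutation test, adjusted p = 0.00378 over 6 added tests). Within titles 1601-1628 the means were 2.25 and 0.667 over 12 tumours, with a permutation p of 0.062 and an adjusted p of 0.0744. The base composition of these stretches was not used here, so the counts are not rates per base. A was changed to G in 24, to C in 21 and to T in 14 SNVs, while T was changed to C in 14, to A in 4 and to G in 0.

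**Figure D4:**
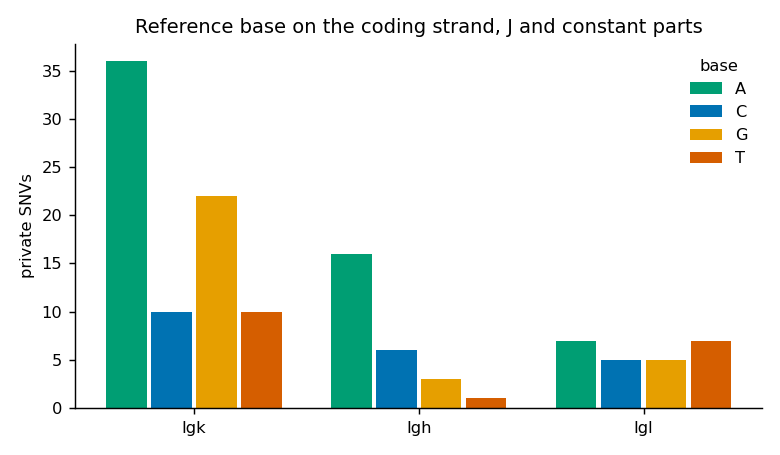
Number of private SNVs (vertical axis) by the reference base on the coding strand in the J and constant parts of Igk, Igh and Igl. A leads in Igk with 36 and in Igh with 16 SNVs, and in Igl A and T have 7 each.

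Read shares of all members ran from 1.57% to 91.3%, with a median of 14.6% and quartiles of 6.22% and 27.3%. Of the 292, 56 were at or below 5%, 118 were at 20% or above in 28 tumours, 34 were at 40% or above in 14 tumours, and 8 exceeded 50% in 6 tumours. The per-tumour median of SNVs in the loci averaged 19.1% ± 11.9, against 17.9% ± 7.68 in the rest (SD, n = 26 each), higher in 14 and lower in 12 tumours (two-sided paired permutation test, p = 0.554, adjusted p = 0.673). Among variants of at least 20% read share the medians averaged 32.2% in the loci and 39.1% in the rest over 10 tumours (adjusted p = 0.0166). Igk and Igh could be compared in 6 tumours, with mean medians of 23.1% ± 14.5 and 26.8% ± 14.2 (exact permutation test, p = 0.688, adjusted p = 0.779).

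J members had higher read shares than V members of the same tumour. The per-tumour medians averaged 22.7% ± 13.95 for J members and 14.99% ± 10.4 for V members (SD, n = 22 tumours with at least 2 of each), higher for J in 17 of 22 tumours. The difference of 7.70 percentage points ± 9.57 was chosen for testing after the data were seen (two-sided paired permutation test, p = 0.00036, adjusted p = 0.00216 over 6 added tests). Most V members lay inside a segment (123 of 156) and most J members outside it (9 of 116 inside). Read depth is unknown, so the lowest share that could be called may differ between the parts. No minimum read share was tried for this difference, and its cause was not tested.

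In 10 tumours both Igk and Igh had J members, and their median shares ran together. In 6 of the 10 the Igk and Igh medians differed by less than 6 points, such as 41.5% and 42.9% in tumour 11, 47.6% and 50% in tumour 20 and 36.4% and 38.03% in tumour 30. The widest gap was in tumour 32, at 22.2% and 7.55%. No minimum number of J members was set here. In tumours 11, 20 and 32 both sides rested on 1 member, as did Igk in tumour 13 and Igh in tumour 27. In tumour 1 the Igk median of 18.6% lay between members at 2.63% and 34.5%. Across the 10 tumours Pearson's r was 0.845 (permutation p = 0.00289, adjusted p = 0.00578) and Spearman's rho 0.830 (permutation p = 0.00448, adjusted p = 0.00672). Without tumours 20 and 27, the farthest from the Igh median, r was 0.786 and rho 0.786 (permutation p = 0.0248 and 0.0277, n = 8). This relation was chosen after the data were seen, and neither title series had 6 such tumours for a value of its own.

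Within a V segment, the read shares of a tumour's members were close in most pairs of members but often wide where there were more. A range grows with the number of members, and a spread of under 5 points is easily met at low shares. The contrast is therefore a description of the calls only. Of 109 combinations of V segment and tumour, 31 held 2 or more members, 78 in all, in 22 tumours, and the median spread was 1.27 percentage points. Of the 20 with 2 members, 18 spread by under 5 points. Of the 11 with 3 or more, 4 spread by under 5 points and 6 by 10 points or more. The close ones were Igkv3-5 in tumour 19 (40.5% to 41.55%), Igkv6-23 in tumour 41 (13.5% to 14.5%), Igkv13-85 in tumour 15 (3.8% to 5.21%) and Igkv15-103 in tumour 14 (25% to 29.2%). The wide ones were Igkv14-111 in tumour 37 (10.4% to 33.3%), Igkv10-96 in tumour 20 (7.04% to 22.6%), Iglv1 in tumours 18 (13.2% to 28.4%) and 42 (8.11% to 27.4%), and Iglv3 in tumours 2 (20.8% to 31.4%) and 34 (10.6% to 28.6%).

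The 6 tumours with the most members differed in how their shares were layered. Tumour 19, with 16 members, had 12 between 32.8% and 47.5%: 4 in Igkv3-5, 3 kappa J, 3 heavy chain J, 1 in the pseudogene Igkv12-42 and the deletion in Igkv4-70. Its other 4 lay at 16.7%, 16.7%, 17.96% and 4.29%. Tumour 2, with 14, carried kappa J members at 69.8%, 66.0%, 39.5% and 14.5%, and 4 in Iglv3 between 20.8% and 31.4%. It also carried a member near Ighd4-1 at 50% and Igkv members between 4.36% and 26.5%, a wide spread without a single level. In this tumour, private variants elsewhere numbered 1689, the most of any tumour.

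Tumour 18, with 14, had 4 in Igkv3-10 between 21.1% and 28.7%, Iglv1 members at 27.1% and 28.4%, and kappa J members between 15.15% and 40.5%. Read shares of the kappa and lambda V segments thus overlapped in this tumour, with another Iglv1 member lower at 13.2%. Tumour 14, with 14, had 9 members between 21.7% and 29.2%, with 3 in Igkv15-103, 2 heavy chain J members at 22.2% and 24%, the neighbouring pair in Igkc at 21.7%, an Iglc1 member at 25% and a kappa J member at 23.1%. An Iglv3 member lay at 17.5%, and 4 members lay lower, with Igkv10-96 at 3.19% and 3.68%, Igkv17-127 at 4.21% and a kappa J member at 6.67%. Tumour 15, with 13, was mostly at low level: 9 of 13 lay between 3.15% and 6.49%, among them 3 in Igkv13-85 and 2 in Igkv3-7, and its kappa J members lay between 9.52% and 23.5%. Tumour 41, with 13 and all of them in Igk, had 8 members between 13.5% and 21.6%, in Igkv6-23, Igkv6-20 and the J region, and 5 between 3.23% and 5.26%.

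**Figure D5:**
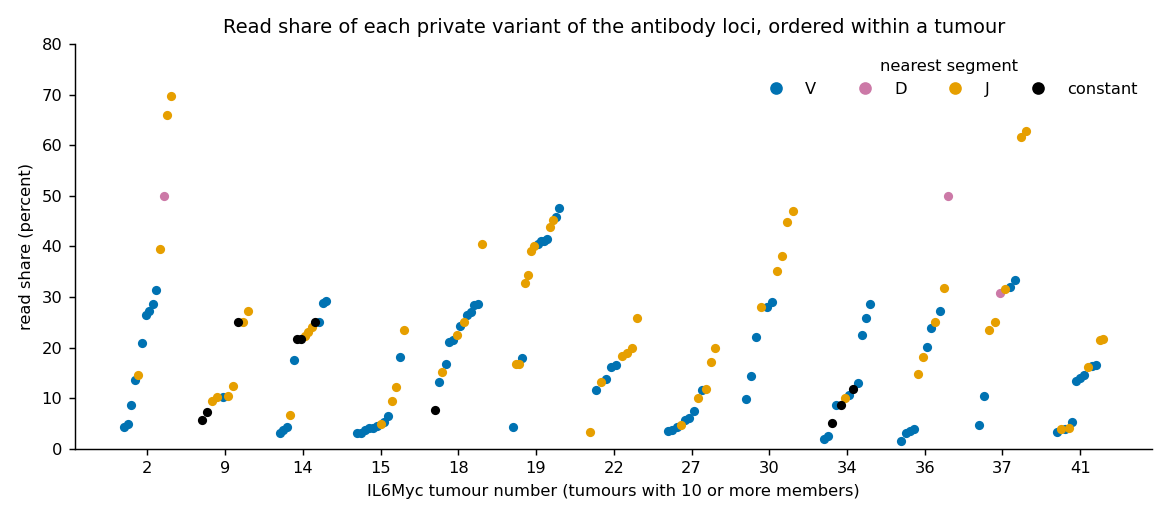
Read share (vertical axis, percent) of every member in the 13 tumours with 10 or more, ordered from low to high within a tumour and coloured by the nearest kind of segment. In tumour 19, 12 of 16 members lie between 32.8% and 47.5%, in tumour 15, 9 of 13 lie below 6.5%, and tumours 14 and 41 show separate low and high levels.

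The other tumours with 10 or more members had other leading V segments. Iglv3 led in tumour 34 with 5 members between 10.6% and 28.6% and in tumour 30 with 2 at 28.1% and 29.1%. Igkv14-111 led in tumour 37 with 3, Igkv4-68 in tumour 22 with 2 at 11.5% and 16.1%, and Igkv1-110 in tumour 27 with 2 at 3.48% and 11.6%. In tumour 9 the only V member was in Igkv6-15 at 10.3%. In tumour 36, with 1 member per V segment, the highest share was 27.3%, at a call 3208 bases from Ighv1-64. No segment led in more than 3 of these 13 tumours, and Iglv3 did so in tumours 2, 30 and 34; equal counts were ranked by median share.

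The number of members per tumour was set against other counts. Igk and Igh counts showed no relation over 44 tumours (Pearson's r = 0.0339, permutation p = 0.829; Spearman's rho = 0.105, permutation p = 0.492). Among members of at least 20% read share, r was 0.488 (adjusted p = 0.00734). The number in the loci and the number of private variants elsewhere had r = 0.310 (permutation p = 0.0293, adjusted p = 0.083) and rho = 0.427 (permutation p = 0.00424, adjusted p = 0.0144). Without tumours 2 and 5, which have the most elsewhere, r was 0.379 and rho 0.431, and within titles 1501-1592 and 1601-1628 r was 0.388 and 0.439 (permutation p = 0.11 and 0.0419). Read depth is unknown. Members averaged 5.64 ± 4.45 in the 22 tumours titled 1601-1628 and 7.61 ± 4.53 in the 18 titled 1501-1592 (SD; two-sided permutation test, p = 0.185), while private variants elsewhere averaged 166 ± 39.2 and 292 ± 107.

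The count in the loci was also set against private SNVs in Myc, a gene that activation-induced deaminase is known to hit outside the antibody loci. Over 44 tumours Pearson's r was 0.271 (permutation p = 0.0765, adjusted p = 0.0765) and Spearman's rho 0.346 (permutation p = 0.0222, adjusted p = 0.0266), a comparison chosen after the data were seen. Without tumours 19 and 33 r was 0.272. Within titles 1501-1592 r was 0.626 (adjusted p = 0.00538) and within titles 1601-1628 it was 0.0575 (adjusted p = 0.807), and the difference between both series was not tested.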

How the data were processed

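Per the labels' protocols, capture used the Agilent mouse exon kit of 50 Mb. Variants were called with GATK on mm10, per the submitters' processing notes. The sources used here do not name the aligner, the versions, the filters or the use made of the kidneys. The deposited table gives each call as a percent, read from its values as the share of reads with the alternate allele, and a deposited count of tumours per variant. Read depth is unknown, and a dot may mean too few reads.

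Of 25823 rows, 199 with several alleles were left out, none of them in the loci. One chromosome 1 row with a deposited count of 1 but 2 calls was left out of the comparison, leaving 12412 private variants elsewhere. Tumours are numbered in accession order. Tests used tumours as units (scipy 1.17.1, pandas 2.3.3; paired, two-group and correlation permutation, 100000 resamples, exact where fewer exist), with at least 5 variants of the kind counted per side for the loci against the rest, 3 per locus for Igk against Igh and 2 per part for J against V, and Benjamini-Hochberg adjustment over 17 tests, or over 6 added ones. The paired test was checked on simulated data with known differences. The correlation was tried on a simulated variable against itself and on independent counts, and the test between title series was not checked. Intervals for shares of tumours are exact Clopper-Pearson 95% and cover counting error only.

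Named were the 15 segments hit in the most tumours, leading V segments of tumours with 10 or more members, all hit J, D and constant genes, and the 6 tumours with the most members. The members and lists were chosen with earlier results of these data known. Without a genome sequence, the base context of the changes was not analysed here.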

Additional observations from a re-analysis of the deposited data

How the results depend on the processing

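The labels give no replicate numbers shared between groups, so no fit with a replicate block was made; the paired tests compare values of the same tumour. The indel and clustered results kept direction and call under all their alternatives. Their differences ran from -35.99 to -19.8 and from 20.5 to 56.3 percentage points, in that order. None of these alternatives removed the choice of members by position, which favours closeness in the loci. With a minimum read share of 20%, which leaves fewer calls, members numbered 118 (179 at 10%), the C>A difference was -1.67, A:T -7.37, the read share -6.91, C>T 4.46, T>C -5.98, T>G -6.78 (now called), T>A 5.39 (no longer called), Igk against Igh r 0.488 (called) and loci against elsewhere r 0.406 (called). With 10% the differences were 0.428 for C>T, -4.12 for T>C and 6.95 for T>A. At least 10 SNVs per side gave 5.54 for T>A and 3.505 for transitions, and at least 1 gave -1.10 for read share. Igk alone gave -0.259 for read share and 8.22 for T>A; Igh alone had too few tumours for the 11 comparisons of the loci with the rest. Variants of 1 or 2 tumours gave -1.65 for read share. Transitions differed by 1.88 with the rest taken from the same chromosomes and by 0.661 without 6 tumour and chromosome pairs of over 100 private variants. Titles 1501-1592 alone gave 7.11 for transitions, 0.859 for C>T, -7.35 for T>G (called), 4.91 for Igk minus Igh read share over 3 tumours, an r of -0.0507 for Igk against Igh and of 0.626 for Myc; titles 1601-1628 gave 8.13 for T>A and 1.58 for A minus T. Without titles 1199-1293, added after seeing the data, loci against elsewhere had an r of 0.414 (called). The causes were not tested. Unknown depth limits every share of a few percent.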
